A study of Mus musculus and Homo sapiens with 15 samples.

Results

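The BCL2 family decides whether the outer mitochondrial membrane of a cell is opened during apoptosis. Pro-survival proteins (BCL2, BCL-xL, MCL1) hold the pore-forming effectors BAX and BAK in check, and BH3-only proteins (BIM, BID, PUMA, NOXA, BMF) bind the pro-survival proteins or the effectors and push towards death. In the thymus, BIM is the main killer of self-reactive thymocytes, MCL1 is needed at most stages of T-cell development, BCL-xL keeps immature thymocytes alive, and p53 directly raises Bbc3, Pmaip1 and Bax when it is functional.

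Described here are 10 genes of the family, chosen by symbol: the pro-survival genes Bcl2, Bcl2l1 (BCL-xL) and Mcl1, the effectors Bax and Bak1, and the BH3-only genes Bcl2l11 (BIM), Bid, Bbc3 (PUMA), Pmaip1 (NOXA) and Bmf. All 10 symbols were found in each of the 3 gene tables, among 52340 genes in the thymus table, 56691 in the graft table and 61806 in the U937 table. The study measured messenger RNA by sequencing in 15 libraries, from samples with or without arsenic trioxide (ATO), a leukaemia drug. W/W mice carried p53 R282W, a destabilising missense mutation, on both alleles, had T-lymphomas and were sampled at day 150 of age. Their thymus was taken in 3 groups of 3 libraries: water, ATO with progressing tumours, and ATO with regressing tumours. No W/W group lacked the mutation, and the regressing and progressing mice were told apart by tumour outcome. Tumours grafted into C57 mice, a "CDX" model with the genotype given as WT and with no name for the grafted cells, were sequenced as 2 libraries with PBS and 2 with ATO. U937, a human myeloid leukaemia line here expressing p53 R282W, was sequenced once with PBS and once with ATO. Doses and treatment times are not given in the sources used here, and nothing in the labels says whether replicates were separate animals, so p-values measure the spread between these libraries.

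Library totals ran from 12800367 to 17550594 counts in thymus, 12922147 to 15637644 in grafts and 16454534 to 17872972 in U937. In the thymus, water replicate 2 and progressing replicate 2 stood apart by their TMM factors, which scale libraries of different makeup to each other (0.747 and 0.794, against at least 1.03 in the other 7). T-lineage transcripts were present in every mouse group (9 of 9 markers detected), with a summed level of 1136 to 1901 CPM (counts scaled to the TMM-corrected library total) in water, 4206 to 4779.5 in progressing and 5591 to 10454 in regressing thymus. Markers of B cells (6 of 6 detected) summed to 71.6 to 3367 CPM in water, 6.21 to 34.5 in progressing and 103 to 150.0 in regressing thymus, and those of thymic epithelium (6 of 6) to 85.1 to 739.9, 23.2 to 77.8 and 1134 to 1317 CPM. In water replicates 1 and 2 the B-cell sum (1371 and 3367 CPM) was above the T-lineage sum (1136 and 1901). In water replicate 3 it was below (71.6 against 1742 CPM). Fibroblast markers (6 of 6) summed to 316 to 915 CPM in water, 769 to 1309 in progressing and 123 to 422 in regressing thymus, and proliferation markers (6 of 6) to 2047 to 2551, 2632 to 3954 and 1877 to 2569.96 CPM, higher in every progressing library than in any other. These whole-tissue marker levels moved with the groups, and their part in every W/W result below was not tested. In bulk tissue, fewer cells of a type and less RNA per cell cannot be told apart.

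Promoter stretches of some of the members that moved are printed here because 4 motifs were searched in them: TGACG, the core of the CREB and ATF site, GTAAACA, the forkhead (FOXO) site, TGATGNAA, the composite site of ATF4 and C/EBP, and the p53 half-site. Both strands were searched in windows of 250 bases before to 50 after each annotated start, none of the 4 overlapping another in the stretches shown. A match is letters only, not bound factor. BMF, 1 of the human BH3-only genes with large ratios in U937, had TGACG close to the start (capitals, at -57 from the start). The motif was in the windows of 5 of the 10 human members (BCL2, BAX, BBC3, PMAIP1 and BMF) and of 29.3% of 20032 human promoters. Human stretches are from GRCh38 with GENCODE starts, written 5′ to 3′ on the gene's strand. The BMF stretch was upstream of the gene except for 13 exonic bases.
BMF, chr15:40108880-40108989, minus strand: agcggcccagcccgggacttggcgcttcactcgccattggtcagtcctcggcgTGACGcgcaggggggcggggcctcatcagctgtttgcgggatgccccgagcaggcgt

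For mouse, RefSeq windows on GRCm38.p6 were used for 9 members (16 windows). GTAAACA stood at -227 in the promoter of Bcl2l11 and at -223 in that of human BCL2L11, inside a run of 12 shared bases. With the stretches set side by side from this motif and no gaps allowed, 57 of 96 bases (59.4%) were identical. An alignment with gaps, which could match more bases, was not made. GTAAACA was in 2 of the 16 mouse member windows, the other being of Bbc3 (at -167), and in 3.65% of 32841 mouse windows. In human it was in 1 of the 10 member windows and 2.42% of all promoters. The mouse stretch was intergenic, and the human one lay in an intron of a longer BCL2L11 transcript and inside the antisense gene MIR4435-2HG.
Bcl2l11 (BIM), mouse, chr2:128125788-128125887, plus strand: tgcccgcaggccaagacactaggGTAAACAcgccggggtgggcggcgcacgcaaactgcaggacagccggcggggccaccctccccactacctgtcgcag
BCL2L11 (BIM), human, chr2:111120664-111120763, plus strand: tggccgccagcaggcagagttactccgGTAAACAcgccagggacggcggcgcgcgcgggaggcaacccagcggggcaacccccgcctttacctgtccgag

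The other 3 mouse genes shown are members that passed a test in W/W thymus. Bcl2 and Bmf held TGACG (capitals, at -107 and at -146 and -16). That motif was in 4 of the 16 mouse member windows, from 4 of the 9 members, and in 20.8% of all mouse windows. Bax held 1 p53 half-site (capitals, at -201). The half-site was in 2 of the 16 member windows (Bax, and Bmf in another window at -213) and in 8.36% of all mouse windows. Bcl2 was shown upstream of its gene, Bmf upstream except for 1 exonic base, and the Bax stretch was inside Gm45808, a gene on the same strand. No window of Bcl2l1 held any of the 4 motifs, and TGATGNAA was in no member's window of either species (3.97% of mouse and 2.5% of human promoters).
Bcl2, mouse, chr1:106714341-106714450, minus strand: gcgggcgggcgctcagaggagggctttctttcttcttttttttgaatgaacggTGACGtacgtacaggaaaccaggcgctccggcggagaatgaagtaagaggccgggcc
Bmf, mouse, chr2:118549687-118549846, minus strand: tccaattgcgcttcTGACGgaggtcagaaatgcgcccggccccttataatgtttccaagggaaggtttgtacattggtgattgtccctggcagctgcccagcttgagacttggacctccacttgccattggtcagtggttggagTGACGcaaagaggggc
Bax, mouse, chr7:45467049-45467148, minus strand: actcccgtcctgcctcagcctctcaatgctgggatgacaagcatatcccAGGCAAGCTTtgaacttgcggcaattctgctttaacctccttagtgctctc

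**Figure D1:**
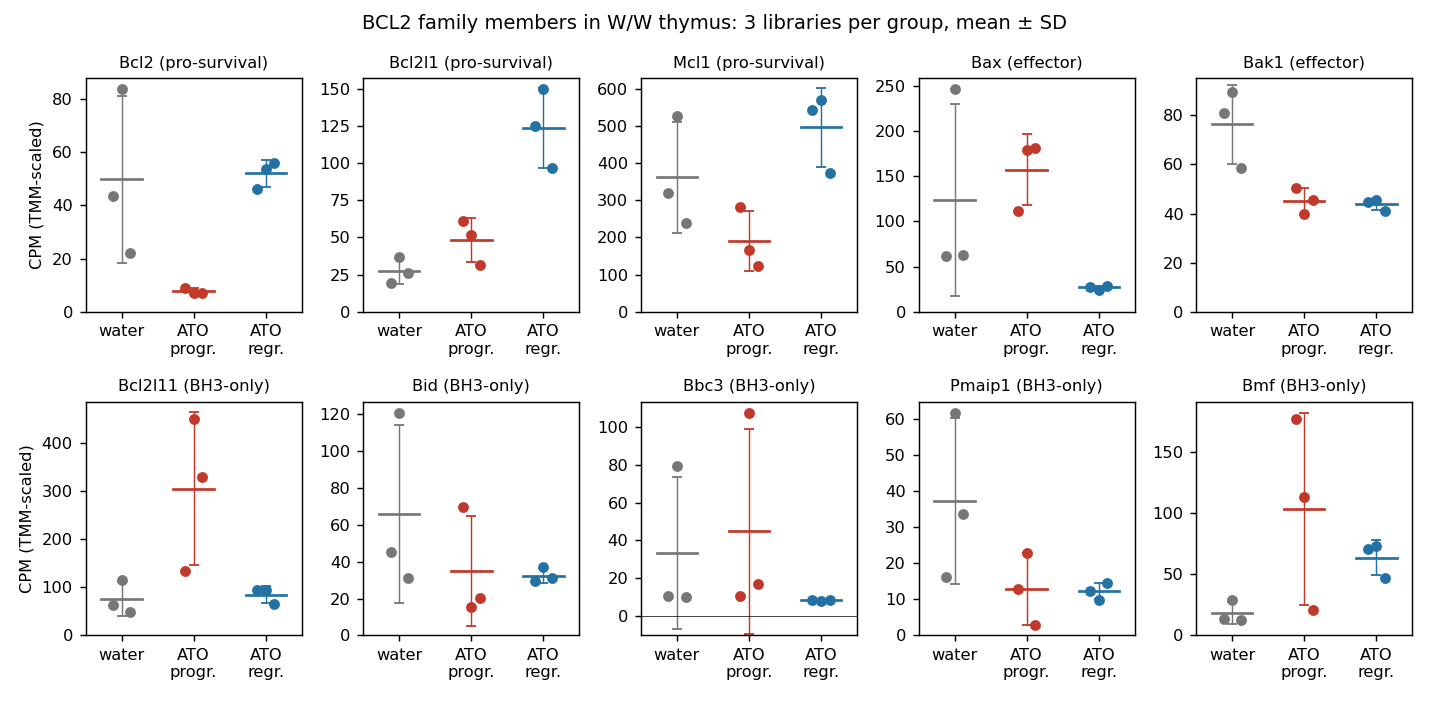
Level of each member in the 9 W/W thymus libraries, in CPM (scaled by TMM). Points are libraries, bars the group mean and whiskers the SD (n = 3). Bcl2 was under 9 CPM in every progressing library, and Bax was between 24.6 and 28.4 CPM in every regressing library.

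In the thymus of W/W mice, 2 of the 3 pro-survival genes differed between progressing and regressing tumours. Bcl2 was low in progressing tumours and at the water level in regressing ones, and Bcl2l1 was highest in regressing ones. Bax, the effector, was low in regressing tumours, and the BH3-only genes Bcl2l11 and Bmf were high in progressing tumours compared with water. For Bmf, progressing replicate 3 lay within the water range, and every regressing library was above that range. The comparisons below share libraries: the same 3 water libraries serve 3 of them, and each ATO library serves several.

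Bcl2, the founding pro-survival member, measured 43.6, 84.0 and 22.0 CPM in the water libraries, 8.92, 7.09 and 7.03 in progressing ones and 46.3, 53.7 and 56.1 in regressing ones. All 3 progressing libraries were below every other library, while the water and regressing groups overlapped. Group means were 49.8 ± 31.5 CPM in water, 7.68 ± 1.07 in progressing and 52.1 ± 5.11 in regressing thymus (SD, n = 3 each). Bcl2 fell by 2.69 ± 0.46 on the log2 scale (SE) in progressing tumours against water (adjusted p = 0.00719, edgeR quasi-likelihood test with Benjamini-Hochberg adjustment over 18119 genes) and was 2.76 ± 0.46 higher in regressing than in progressing tumours (adjusted p = 0.0110, edgeR). Both calls were kept in all 14 alternatives, each library left out in turn included. The B-cell marker sum was lowest in the progressing libraries too and differed widely among the water libraries, at 1371, 3367 and 71.6 CPM in replicates 1, 2 and 3. Regressing and water thymus differed by only 0.06 ± 0.43 (adjusted p = 0.937, edgeR).

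Bcl2l1, which encodes BCL-xL, measured 19.5, 36.5 and 26.1 CPM in water, 60.9, 52.0 and 31.7 in progressing and 125, 150.0 and 96.6 in regressing thymus. Every regressing library was above every other library, and the lowest progressing library lay within the water range. Bcl2l1 rose by 2.18 ± 0.36 (log2, SE) in regressing tumours against water, a 4.52-fold difference (adjusted p = 0.0118, edgeR), and was 1.36 ± 0.35 higher in regressing than in progressing tumours (adjusted p = 0.0343). Against water, the call ended without regressing replicate 1 or 2 (adjusted p = 0.0576 and 0.0725, edgeR). Against progressing tumours, it ended without progressing replicate 2 or 3 or without any 1 regressing library (adjusted p from 0.0554 to 0.129, log2 change from 1.13 to 1.58). Thymic epithelial and T-lineage markers were both highest in the same 3 regressing libraries, and their part was not tested. In progressing tumours the change from water was 0.82 ± 0.35 and did not pass (adjusted p = 0.152, edgeR).

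Mcl1, a short-lived pro-survival protein's gene, was the most abundant member by FPKM in water and regressing thymus. It measured 321, 529 and 238 CPM in water, 282, 167 and 124 in progressing and 545, 572 and 375 in regressing thymus. All regressing libraries were above all progressing ones, and the water libraries spanned both. The difference between regressing and progressing tumours was 1.38 ± 0.41 (log2, SE) and just missed the threshold (adjusted p = 0.0506, edgeR). It passed in 8 of 14 alternatives, among them DESeq2 (adjusted p = 0.00901) and the fit without progressing replicate 1 (adjusted p = 0.0359). Against water, the changes of 0.46 in regressing and -0.92 in progressing tumours did not pass (adjusted p = 0.487 and 0.162, edgeR).

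Among the effectors, Bax measured 61.7, 247 and 62.6 CPM in water, 112, 179 and 181 in progressing and 27.7, 24.6 and 28.4 in regressing thymus. All regressing libraries were below every other library, and water replicate 2 was the highest of the 9. Bax fell by 2.20 ± 0.52 on the log2 scale (SE) in regressing tumours against water, a 4.60-fold difference (adjusted p = 0.0340, edgeR), and fell by 2.55 ± 0.53 against progressing tumours (adjusted p = 0.0198). Without water replicate 2, the change from water was -1.12 and did not pass (adjusted p = 0.0518, edgeR). It also did not pass without any 1 regressing library (adjusted p from 0.0901 to 0.157), with limma-voom (0.0546), or with the compared groups alone (0.0540), though it passed without water replicate 2 and progressing replicate 2 together (-1.13, adjusted p = 0.0359). Against progressing tumours, the call ended without progressing replicate 3 or any 1 regressing library (adjusted p from 0.0562 to 0.0794, edgeR). In progressing tumours, the change from water was 0.35 ± 0.50 (adjusted p = 0.696) and became 1.35 without water replicate 2 (adjusted p = 0.0173, edgeR).

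Bak1, the second effector, measured 80.8, 89.7 and 58.6 CPM in water, 50.2, 39.8 and 45.4 in progressing and 44.7, 45.3 and 41.2 in regressing thymus. All 6 ATO libraries were below all 3 water libraries, and both ATO groups had nearly the same level. The changes from water, -0.76 ± 0.27 in progressing and -0.81 ± 0.27 in regressing tumours (log2, SE), did not pass (adjusted p = 0.0958 and 0.0899, edgeR).

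Of the BH3-only genes, Bcl2l11, encoding BIM, measured 63.7, 115 and 47.8 CPM in water, 134, 449 and 329 in progressing and 94.9, 95.001 and 64.2 in regressing thymus. All progressing libraries were above all others, with replicate 1 close to the highest water library. Bcl2l11 rose by 2.01 ± 0.47 (log2, SE) in progressing tumours against water, a 4.04-fold difference (adjusted p = 0.0232, edgeR), and was 1.85 ± 0.47 higher in progressing than in regressing tumours (adjusted p = 0.0333). The call against water ended without water replicate 1 or 3 or without progressing replicate 2 or 3 (adjusted p from 0.0523 to 0.0730, edgeR) and with the compared groups alone (0.0515). The call between the ATO groups ended without progressing replicate 2 or 3 or any 1 regressing library (adjusted p from 0.0851 to 0.111, edgeR).

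Bmf, whose protein is released by loss of cell attachment and binds pro-survival members, measured 13.6, 29.2 and 13.0 CPM in water, 177, 114 and 20.7 in progressing and 70.5, 73.4 and 47.1 in regressing thymus. All regressing libraries were above all water ones, whereas progressing replicate 3 fell within the water range. Bmf rose by 2.48 ± 0.65 (log2, SE) in progressing tumours against water (adjusted p = 0.0345, edgeR). That call ended without water replicate 1 or 3 or progressing replicate 1 or 2 (adjusted p from 0.0641 to 0.103), with limma-voom (0.104), with the compared groups alone (0.0724) and without water replicate 2 and progressing replicate 2 together (0.0587). The change in regressing tumours, 1.78 ± 0.64, did not pass (adjusted p = 0.102, edgeR) but did with DESeq2 (0.0278), with no filter on low counts (0.00268) and with the compared groups alone (0.0315).

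Bbc3, encoding the p53 target PUMA, measured 10.2, 79.7 and 9.96 CPM in water, 10.3, 108 and 16.7 in progressing and 8.46, 7.82 and 8.29 in regressing thymus. Water replicate 2 and progressing replicate 2 were high and the other 7 libraries lay between 7.82 and 16.7 CPM. No W/W comparison of Bbc3 passed (adjusted p = 0.204 for regressing and 0.806 for progressing against water, 0.120 between the ATO groups, edgeR). With no filter on low counts, Bbc3 passed against water (adjusted p = 0.0273) and against progressing tumours (0.00399) in the regressing group, the latter also with DESeq2 (0.0354), and without both high libraries these changes were -0.22 and -0.64 (adjusted p = 0.722 and 0.231, edgeR).

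Pmaip1, encoding the MCL1-binding p53 target NOXA, measured 16.2, 61.7 and 33.6 CPM in water, 12.8, 22.9 and 3.004 in progressing and 12.4, 9.94 and 14.4 in regressing thymus. The regressing libraries were all below the water ones, and the progressing group overlapped both. Changes from water of -1.60 ± 0.68 in regressing and -1.53 ± 0.68 in progressing tumours did not pass (adjusted p = 0.153 and 0.167, edgeR).

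Bid, which death-receptor caspases cleave into its active form, measured 45.2, 121 and 31.1 CPM in water, 69.6, 15.4 and 20.2 in progressing and 29.4, 37.1 and 31.0 in regressing thymus. Water replicate 2 was the highest and all 3 groups overlapped. None of the changes passed (adjusted p of at least 0.307 in these 3 comparisons, edgeR), and the direction between water and progressing depended on the pair of libraries that stood apart.

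**Figure D2:**
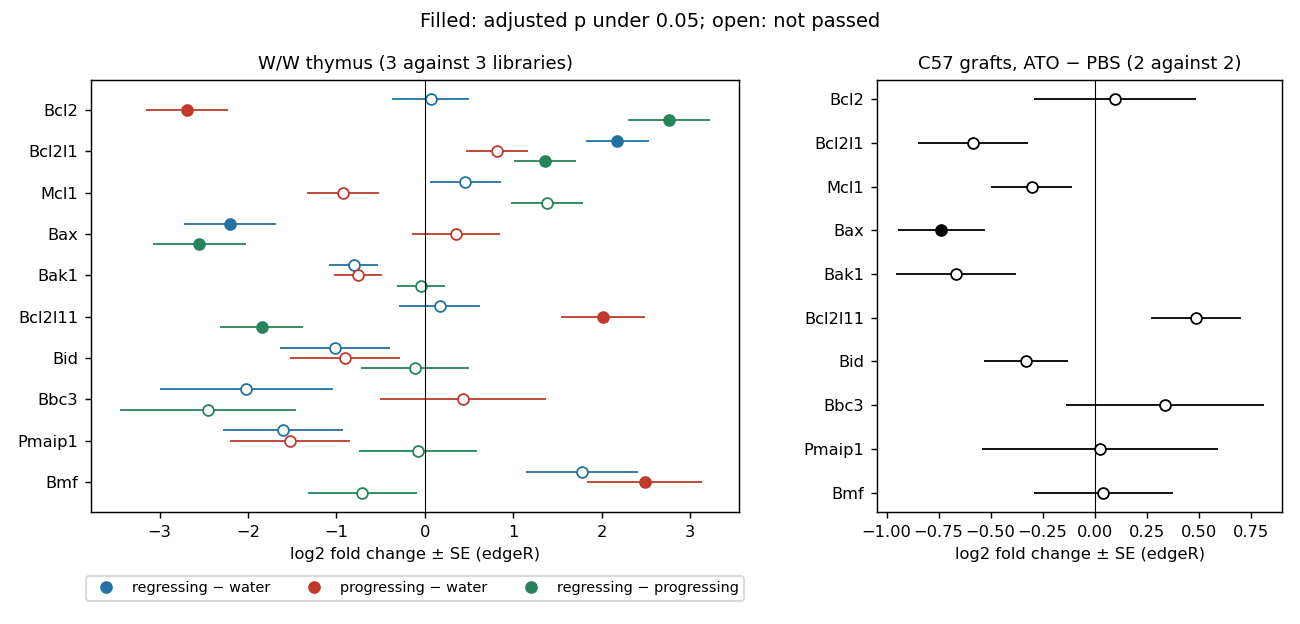
Log2 fold change of each member with its SE, in W/W thymus (left) and C57 grafts (right), from the edgeR fits. Filled points passed an adjusted p of 0.05: 2 members in regressing against water, 3 in progressing against water, 4 in regressing against progressing and 1 in the grafts.

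Counted by role, 1 of 3 pro-survival genes rose (Bcl2l1), 1 of 2 effectors fell (Bax) and 0 of 5 BH3-only genes passed in regressing tumours against water. These 2 of 10 members called in edgeR compare with 7.7% of all 18119 genes tested (3.13% higher and 4.57% lower). The 10 members were chosen with earlier results of these data known, so such comparisons, here and below, are description only. In progressing tumours against water, 1 of 3 pro-survival genes fell (Bcl2) and 2 of 5 BH3-only genes rose (Bcl2l11 and Bmf), 3 of 10 members against 11.9% of all genes (4.77% higher and 7.13% lower). Between regressing and progressing tumours, 2 pro-survival genes were higher and 1 effector and 1 BH3-only gene lower in regressing ones, 4 of 10 members against 12.6% of all genes (6.45% higher and 6.18% lower). The groups did not overlap for 6 members in regressing against water (40.1% of all genes), 3 in progressing against water (26.6%) and 6 between the ATO groups (42%). The members' median log2 change was -0.37 in regressing and -0.20 in progressing tumours against water and -0.10 between the ATO groups, beside -0.11, -0.04 and -0.07 for all genes tested. Without water replicate 2 and progressing replicate 2 together, an alternative chosen after seeing the data, the members called were Bcl2l1 and Bax in regressing against water, Bcl2, Bax and Bcl2l11 in progressing against water, and Bcl2, Bcl2l1, Bax and Bcl2l11 between the ATO groups.

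Both ATO groups against water, 6 libraries against 3, changed 3 members, 2 up and 1 down, beside 10.9% of all genes (3.57% higher and 7.3% lower). Bcl2 fell by 1.32 ± 0.36 on the log2 scale (SE), although its regressing libraries stood at the water level and only the progressing ones were low (adjusted p = 0.0431, edgeR). Bcl2l1 rose by 1.497 ± 0.32 (adjusted p = 0.0171) and Bmf rose by 2.13 ± 0.60 (adjusted p = 0.0453, edgeR). The groups of these 3 overlapped, and Bak1 was the 1 member whose groups did not (12.3% of all genes), at -0.78 ± 0.23 (adjusted p = 0.0536, edgeR). With only 2 groups in the fit, ATO and water, none of the 3 passed (adjusted p = 0.614, 0.109 and 0.0958, edgeR). The Bcl2 and Bmf calls each ended in 8 of the 9 fits that left out 1 library, being kept only without water replicate 3 for Bcl2 and only without progressing replicate 3 for Bmf (adjusted p otherwise from 0.0584 to 0.220 and from 0.0525 to 0.129). The Bcl2 change was -0.67 without water replicate 2 and -0.64 without both libraries that stood apart, and its call also ended with no scaling factors (adjusted p = 0.0565) and with limma-voom (0.121), as did that of Bmf with limma-voom (0.0953) and without both libraries (0.0682). The Bcl2l1 call ended without water replicate 1 or 3 or regressing replicate 2 (adjusted p from 0.0561 to 0.0613, edgeR).

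The balance of roles within each library followed from these levels. FPKM, counts scaled by gene length and library depth, was used here because it compares genes of different length within a library. Pro-survival genes made up 49.1, 35.8 and 44.2% of the 10 members' summed FPKM in the water libraries, 36.0, 18.3 and 18.5% in progressing and 71.0, 72.5 and 66.2% in regressing ones. Every regressing library was above, and 2 of 3 progressing libraries below, every water library. Mcl1 alone held 32.2 to 44.8% in water, 14.7 to 30.7% in progressing and 53.01 to 59.1% in regressing libraries. The effectors' share was 34.7 to 40.4% in water, 34.3 to 56.4% in progressing and 12.1 to 17.0% in regressing libraries. The BH3-only share was 16.2 to 23.8% in water, 25.1 to 42.5% in progressing and 15.4 to 16.9% in regressing libraries.

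**Figure D3:**
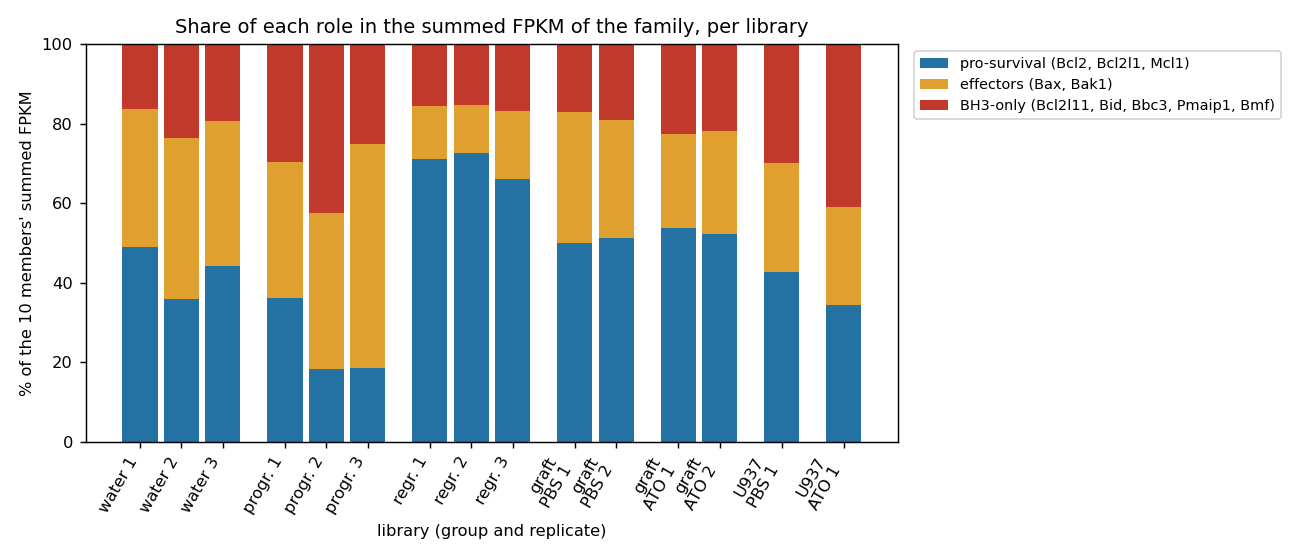
Share of pro-survival, effector and BH3-only members in the 10 members' summed FPKM, in % for each of the 15 libraries. The regressing thymus libraries had the largest pro-survival shares (66.2 to 72.5%) and progressing replicates 2 and 3 the smallest (18.3 and 18.5%).

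Ratios of FPKM between partners spread more widely. The ratio of Bcl2l1 to Bcl2 was 0.895, 0.870 and 2.38 in water, 13.6, 14.7 and 9.05 in progressing and 5.38, 5.58 and 3.44 in regressing libraries. It was thus higher in all ATO libraries than in water. By FPKM, Bcl2 was 2.61 to 6.69 in water, 0.61 to 1.04 in progressing and 5.84 to 6.49 in regressing libraries. Bcl2l1 FPKM was 4.42 to 6.20, 7.15 to 14.1 and 22.0 to 36.2 in the same order. In progressing libraries a lower Bcl2 and a higher Bcl2l1 both entered the ratio, in regressing ones a higher Bcl2l1. Mcl1 to Bcl2l11 was 10.8 to 11.8 in water and 13.5 to 14.1 in regressing libraries but 4.93, 0.873 and 0.884 in progressing ones. Bcl2l1 to Bax was 0.0509 to 0.143 in water, 0.0601 to 0.187 in progressing and 1.17 to 2.10 in regressing libraries.

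By FPKM, the order of levels in water was Mcl1 (95.4 ± 18.5, SD, n = 3), Bax (66.1 ± 41.9), Bak1 (29.5 ± 4.63), Bid (15.9 ± 7.99), Bbc3 (12.5 ± 12.9), Pmaip1 (12.03 ± 5.30), Bcl2l11 (8.38 ± 1.96), Bcl2l1 (5.48 ± 0.937), Bcl2 (4.75 ± 2.05) and Bmf (3.15 ± 0.785). Neighbours did not overlap at 3 places, between Bax and Bak1, Bak1 and Bid, and Bcl2l11 and Bcl2l1. In progressing tumours Bax led (94.8 ± 22.0) but overlapped Mcl1 (54.6 ± 28.7), Bcl2l11 was the third (34.8 ± 14.8), and Bcl2 was the last (0.813 ± 0.216), below Pmaip1 (4.26 ± 2.83) with no overlap. In regressing tumours Mcl1 led (161 ± 40.4) above Bcl2l1 (29.9 ± 7.22) and Bak1 (20.0 ± 1.89), and Bbc3 was the last (4.25 ± 0.300), overlapping Pmaip1 (4.92 ± 0.784).

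Of 48 listed genes (other family members, apoptosome and caspases, inhibitors of apoptosis, death receptors and upstream regulators), 46 were tested. In regressing tumours against water 1 rose and 2 fell, in progressing against water 1 rose and 4 fell, and between regressing and progressing 2 were higher and 0 lower. With both ATO groups against water 2 rose and 4 fell. The share of all genes called in these comparisons was 7.7, 11.9, 12.6 and 10.9%. Their median log2 change was -0.18, -0.17, 0.14 and -0.20 in this order, beside -0.11, -0.04, -0.07 and -0.11 for all genes.

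The genes that fell in these comparisons were Bcl2a1a, Bcl2a1b, Bcl2a1d and Birc3. Bcl2a1a, Bcl2a1b and Bcl2a1d encode mouse A1, a pro-survival protein of activated lymphocytes and myeloid cells, and are near-identical copies whose reads the authors' counting may have split, so each is uncertain alone. Bcl2a1d was at 49.6 ± 21.9 CPM in water, 2.56 ± 1.04 in progressing and 11.6 ± 7.69 in regressing thymus (SD, n = 3 each), a log2 change of -4.28 in progressing (adjusted p = 0.00400) and -2.09 in regressing tumours (adjusted p = 0.0499, edgeR). Bcl2a1b was at 73.5 ± 19.8, 9.59 ± 5.43 and 13.3 ± 8.61 CPM, with changes of -2.94 (adjusted p = 0.0158) and -2.46 (0.0382). Bcl2a1a fell by 3.50 in progressing tumours (adjusted p = 0.0244, edgeR). With 1 library left out, the regressing calls ended in all 6 fits for Bcl2a1b and in 5 of 6 for Bcl2a1d, being kept without regressing replicate 3, and the progressing calls of both were kept in 6 of 6, whereas that of Bcl2a1a ended without water replicate 1 or 3 or progressing replicate 1 or 3. Between the ATO groups Bcl2a1d was 2.18 higher in regressing tumours (adjusted p = 0.0375), a call that ended in all 6 such fits. Against water with both ATO groups together, Bcl2a1a, Bcl2a1b and Bcl2a1d fell (log2 change -2.83, -2.70 and -3.19), and the call of Bcl2a1a ended without water replicate 1 or 3 or regressing replicate 1 or 2. Macrophage markers (6 of 6 detected) summed to 459 to 1445 CPM in water, 153 to 693 in progressing and 291 to 479 in regressing thymus, and their part was not tested.

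Birc3, an inhibitor-of-apoptosis ligase (cIAP2), was at 78.8 ± 15.1 CPM in water, 21.8 ± 3.69 in progressing and 49.6 ± 1.41 in regressing thymus. It fell by 1.86 in progressing tumours (adjusted p = 0.00481), was 1.19 higher in regressing than in progressing ones (adjusted p = 0.0268, edgeR) and fell by 1.26 with both ATO groups together (adjusted p = 0.00987). The call between the ATO groups ended without progressing replicate 3 or any 1 regressing library. Foxo3, a forkhead factor known to drive Bcl2l11, rose from 48.3 ± 5.54 CPM in water to 102 ± 7.32 in progressing (log2 change 1.08, adjusted p = 0.0268) and 94.1 ± 18.1 in regressing thymus (0.96, adjusted p = 0.0499, edgeR), and by 1.02 with both together (0.0226). Leaving out 1 library ended the Foxo3 call in all 6 fits of the regressing comparison, in 3 of 6 of the progressing one (without water replicate 1 or 3 or progressing replicate 3) and in 4 of 9 of the joint one (without water replicate 1 or 3 or regressing replicate 1 or 2). Casp6, an executioner caspase, was at 20.4 ± 7.36 CPM in water, 51.5 ± 18.4 in progressing and 48.9 ± 10.8 in regressing thymus, and rose by 1.30 with both ATO groups together (adjusted p = 0.0424, edgeR), a call that ended without water replicate 1 or 3, progressing replicate 1 or regressing replicate 1 or 2. With only ATO and water in the fit, the joint calls of Bcl2a1a, Bcl2a1d, Birc3, Casp6 and Foxo3 ended. The Foxo3 calls of both single ATO groups ended with no filter on low counts, that of the regressing group also with limma-voom (adjusted p = 0.0539) and that of the progressing group with only the compared groups (0.0802, edgeR). The calls of Bcl2a1b and Bcl2a1d in regressing tumours against water ended with no scaling factors, and that of Bcl2a1d also with only the compared groups (adjusted p = 0.0605, edgeR). With both ATO groups, those of Foxo3 and Bcl2a1d ended with only the compared groups (adjusted p = 0.0589 and 0.0641, edgeR), and Bcl2a1d between the ATO groups ended with limma-voom (adjusted p = 0.0981).

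The genes whose levels ran most like those of the called members across the 9 W/W libraries were searched among 10097 genes, by Pearson's r of log2(CPM + 1), as a description of libraries that share groups and scaling. For Bcl2 these were Nfkb1 (r = 0.982), Igkc (0.979) and Cd2 (0.972). For Bcl2l1 they were Phf2os1 (0.982), Dyrk1b (0.975) and H2-Q2 (0.975). For Bax they were Phf7 (0.995), Nif3l1 (0.989) and Yipf1 (0.987). For Bcl2l11 they were Ap4b1 (0.988), Zbtb17 (0.987) and Actr10 (0.977). For Bmf they were Nfyb (0.975), Prkci (0.969) and Uba3 (0.964).

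In the C57 grafts 1 member, Bax, passed the test. Bax was lower after ATO, at 87.5 and 74.6 CPM with PBS against 47.2 and 49.9 with ATO, and no other member passed. The groups did not overlap for Bax, which fell by 0.74 ± 0.21 on the log2 scale (SE), from 81.0 ± 9.14 to 48.6 ± 1.85 CPM (SD, n = 2 each; adjusted p = 0.0389, edgeR over 15468 genes). This call ended without PBS replicate 1 (adjusted p = 0.220), ATO replicate 1 (0.0796) or ATO replicate 2 (0.0565) and with no scaling factors (-0.54, adjusted p = 0.102, edgeR). This 1 call among 10 members compares with 13.9% of all genes (7.37% higher and 6.57% lower), and the groups did not overlap for 6 members, beside 61.7% of all genes. The members' median log2 change was -0.14, beside 0.04 for all genes.

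Pro-survival levels in the grafts were 8.29 and 16.3 CPM with PBS and 15.1 and 11.2 with ATO for Bcl2, which overlapped. Bcl2l1 was at 53.8 and 34.9 CPM with PBS and 27.2 and 31.9 with ATO, lower in both ATO grafts but not past the threshold (-0.59 ± 0.26, adjusted p = 0.151, edgeR). Mcl1, again the most abundant member by FPKM, was at 377 and 341 CPM with PBS and 288 and 294 with ATO (-0.30 ± 0.19, adjusted p = 0.308). The effector Bak1 was at 61.2 and 36.9 CPM with PBS and 25.1 and 36.5 with ATO (-0.67 ± 0.29, adjusted p = 0.137, edgeR). It passed without PBS replicate 2 (adjusted p = 0.0453) or ATO replicate 2 (0.0269).

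Among BH3-only genes, Bcl2l11 was at 65.4 and 55.8 CPM with PBS and 93.8 and 75.8 with ATO, higher in both ATO grafts (0.49 ± 0.22, adjusted p = 0.145, edgeR). Bid was at 99.3 and 105 CPM with PBS and 74.5 and 87.7 with ATO, lower in both (-0.33 ± 0.20, adjusted p = 0.286). The other 3 overlapped between groups. Bbc3 lay between 2.41 and 4.20 CPM, Pmaip1 between 1.21 and 2.18 and Bmf between 13.3 and 22.1, and none of them passed (adjusted p of at least 0.667, edgeR). Pro-survival genes held 50.004 and 51.3% of the summed FPKM with PBS and 53.7 and 52.2% with ATO.

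Of the pathway list, 45 genes were tested in grafts, 2 rose and 2 fell, with a median log2 change of -0.13. Of all 15468 genes, 13.9% were called (7.37% higher and 6.57% lower), with a median of 0.04. Huwe1, the ubiquitin ligase that degrades MCL1, rose from 128 ± 36.4 to 326 ± 43.2 CPM (1.35, adjusted p = 0.00901), and Birc6, a very large inhibitor of apoptosis, from 76.1 ± 19.0 to 171 ± 8.26 (1.17, adjusted p = 0.0111, edgeR; SD, n = 2 each). Bad, a BH3-only gene, fell by 1.14 on the log2 scale from 24.5 ± 4.07 to 11.1 ± 3.47 CPM (adjusted p = 0.0400), and Cycs, cytochrome c, fell by 0.96 from 38.7 ± 0.243 to 19.9 ± 1.12 CPM (adjusted p = 0.0261, edgeR). Calls ended without PBS replicate 1 for Birc6, Bad and Cycs, without PBS replicate 2 for Bad and Cycs, and without ATO replicate 1 for Bad, while Huwe1 was called in all 4 fits. With no scaling factors, Bad and Cycs did not pass. The mitochondrially encoded share of counts was 0.52 and 1.02% with PBS and 5.98 and 4.03% with ATO. T-lineage markers (9 of 9 detected) summed to 6955 to 8502 CPM with PBS and 4613 to 5806 with ATO, fibroblast markers (6 of 6) to 212 to 468 and 600.2 to 1623, proliferation markers (6 of 6) to 2368 to 2514 and 2906 to 3329, and B-cell markers stayed under 9 CPM. These values moved with treatment, and their part in the graft results was not tested.

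In U937 cells 3 of the 5 BH3-only genes and 1 of the 3 pro-survival genes were past 2-fold. PMAIP1, BBC3 and BMF were 4.46 to 5.14-fold higher after ATO, and BCL2 was 2.70-fold lower. With 1 library per group there is no test of treatment. The intervals that follow are exact 95% intervals for counting error only.

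PMAIP1 (NOXA) went from 15.4 to 79.3 CPM, a ratio of 5.14 (4.51 to 5.87). BBC3 (PUMA) went from 8.39 to 43.1 CPM, also a ratio of 5.14 (4.31 to 6.17). BMF went from 40.3 to 179.6 CPM, a ratio of 4.46 (4.11 to 4.84). BMF is the gene whose stretch with TGACG is printed above. That motif was also in the windows of BCL2, BAX, BBC3 and PMAIP1, of which BCL2 was lower after ATO. BID, in contrast, was lower after ATO, at 58.2 and 35.3 CPM, a ratio of 0.606 (0.547 to 0.672). BCL2L11 differed least, from 65.7 to 79.4 CPM, a ratio of 1.21 (1.12 to 1.31).

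Among pro-survival genes BCL2 went from 72.5 to 26.9 CPM, a ratio of 0.370 (0.332 to 0.413). MCL1 went from 203 to 348 CPM, a ratio of 1.71 (1.64 to 1.79), and BCL2L1 from 80.1 to 118 CPM, a ratio of 1.47 (1.38 to 1.58). Pro-survival members thus differed in direction. Of the effectors, BAK1 went from 48.6 to 92.7 CPM, a ratio of 1.91 (1.75 to 2.08), and BAX from 38.6 to 52.8 CPM, a ratio of 1.37 (1.24 to 1.51).

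**Figure D4:**
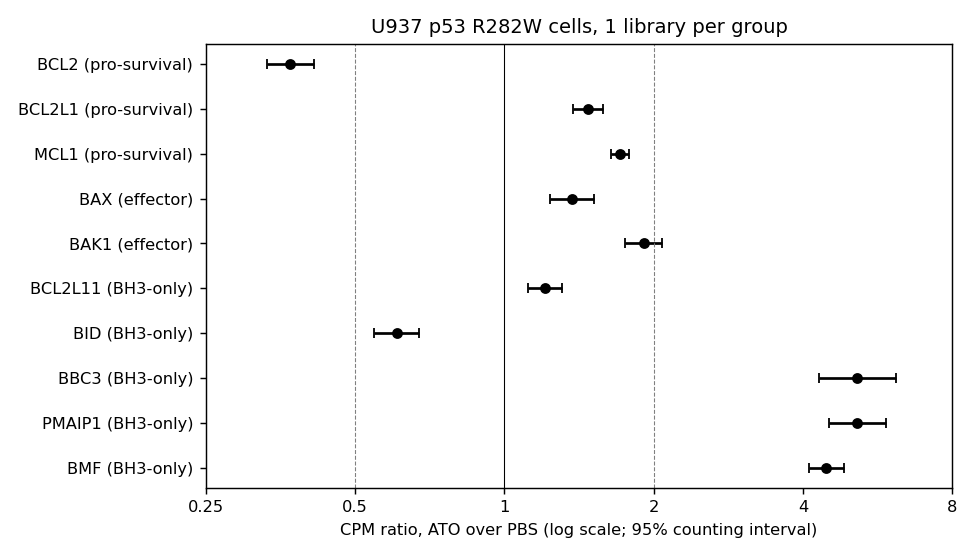
Ratio of CPM with ATO to CPM with PBS for the 10 members in U937 p53 R282W cells, on a log scale, with the exact 95% counting interval. The dashed lines mark 2-fold; BBC3, PMAIP1 and BMF lie above the upper line and BCL2 below the lower one.

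Past 2-fold were 4 of 10 members, 3 higher and 1 lower, on the log2(CPM + 1) scale, beside 23.8% of the 13722 genes averaging 1 CPM or more (15.3% higher and 8.53% lower). The median log2 ratio was 2.13 for the 5 BH3-only genes, 0.55 for the 3 pro-survival genes, 0.68 for the 2 effectors and 0.13 for all genes. With TMM factors, all ratios were 0.21 lower on the log2 scale. The pro-survival share of summed FPKM was 42.7% with PBS and 34.3% with ATO, and the BH3-only share 29.9 and 40.9%. BCL2L1 to BCL2 was 3.32 with PBS and 13.2 with ATO. By FPKM, MCL1 was the highest member in both (32.6 and 55.9), BBC3 the lowest with PBS (2.64) and BCL2 the lowest with ATO (2.13).

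Of 46 listed pathway genes, 39 reached a mean of 1 CPM in U937, 3 were past 2-fold higher and 0 lower. Among all 13722 genes at that level, 23.8% were past 2-fold (15.3% higher and 8.53% lower). BNIP3L, a BH3-related mitophagy receptor, went from 115 to 356 CPM, a ratio of 3.10 (2.94 to 3.26), and the death receptor TNFRSF10B from 107 to 250.02 CPM, a ratio of 2.34 (2.22 to 2.47). The third, DIABLO, named here after its values were seen, was at 2.29 and 6.87 CPM. Markers of the myeloid lineage (8 of 8 detected) summed to 2288 CPM with PBS and 736 with ATO. Most of that sum was LYZ, at 1744 CPM with PBS and 473 with ATO. ELANE, AZU1 and SPI1 were also lower with ATO, whereas ITGAM (19.7 and 48.1 CPM), CD33, CD68 and MPO were higher. The part of these markers in the U937 ratios was not tested. Lymphoid markers summed to 9.29 and 9.91 CPM, with CD3D at 0 in both.

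Gene-level counts did not separate splice forms such as the long and short products of Bcl2l1 or Mcl1. In the thymus table, which used GRCm38, Bax shared its strand with Gm45808, Bcl2 with 2 of 3 overlapping genes and Bid with 1 of 3, and Bak1 overlapped 2 genes on the other strand. Whether strand was used in counting is not given in the sources used here, so reads of overlapping genes cannot be told apart. Bcl2 lies at chr1:106538178-106714274 (minus strand), Bcl2l1 at chr2:152780668-152831728 (minus), Mcl1 at chr3:95658788-95663176 (plus), Bax at chr7:45461697-45466898 (minus), Bak1 at chr17:27019810-27029009 (minus), Bcl2l11 at chr2:128126038-128162547 (plus), Bid at chr6:120891930-120916853 (minus), Bbc3 at chr7:16308393-16318205 (plus), Pmaip1 at chr18:66458533-66465565 (plus) and Bmf at chr2:118528757-118549687 (minus).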

How the data were processed

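Per the labels' protocols, TRIzol was used for total RNA and a SMARTer kit for the libraries. FastQC 0.10.1, cutadapt 1.9.1, HISAT2 2.0.1 and the mouse build GRCm38 (mm10) are named in the submitters' processing notes. The counter and its use of strand are not given in the sources used here. Gene positions in the thymus table matched GENCODE vM21 on GRCm38 for 99.4% of shared genes, those in the U937 table matched GENCODE v44 for 98.2%, and those in the graft table for 2.83%, so that table's build is unnamed and none of its coordinates are printed.

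The authors deposited raw counts per gene and FPKM for each library in 3 tables. From the counts, CPM was computed on library totals (12800367 to 17872972), multiplied by TMM factors for mouse. The test was that of edgeR 4.0.16 under R 4.3.3 (filterByExpr, TMM, quasi-likelihood test, Benjamini-Hochberg adjustment, adjusted p under 0.05), the 9 thymus libraries in 1 fit and the 4 grafts in another. The deposited FPKM served only to compare genes within a library. U937 ratios used log2(CPM + 1), genes averaging 1 CPM or more and exact conditional binomial intervals at 95%, which cover counting error only. The scripts were tested on simulated counts.

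All 10 members are named in every comparison. Other pathway genes are named where they passed the test (at most 8 per comparison, by size of change), in U937 where they were past 2-fold and reached 10 CPM. The 3 most alike genes were sought among tested genes averaging 10 CPM or more with an ordinary symbol, and are printed for members called in W/W thymus. The members and gene lists were chosen with earlier results of these data known. Alternatives were DESeq2 1.42.0, limma-voom (limma 3.58.1), other or no scaling, no filter on low counts, a replicate block, only the compared groups, and each library left out in turn. Protein sequences and the mouse Pmaip1 promoter were not used here.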

Additional observations from a re-analysis of the deposited data

Results flagged for a closer look

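Bbc3, which encodes PUMA, stood far from the rest in 1 thymus library. Progressing replicate 2 held 108 CPM, the highest of the 6 ATO-treated W/W libraries, and the next was progressing replicate 3 with 16.7 CPM. The gap to the next library was 0.911 of the whole range of the 6, above Dixon's 95% critical value of 0.625. For 6 values drawn from 1 normal distribution, chance alone flags about 1 in 20 such groups. The 6 libraries here pool progressing and regressing tumours, so that rate need not hold for them. The same library was also 1 of the 2 with a low scaling factor (0.794), and water replicate 2, the other one (0.747), held 79.7 CPM of Bbc3.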

How the results depend on the processing

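With 3 libraries a group, or 2 in the grafts, most member calls ended in at least 1 of the fits that left out a library. Among the members, the Bcl2 calls of progressing against water and of regressing against progressing tumours were the 2 kept in all 14 alternatives. ATO and tumour outcome cannot be told apart in the comparisons of one outcome with water. Tissue makeup was not tested, splice forms were not counted, and U937 has no replicate. The deposited counts carry no unique molecular identifiers known here, so intervals cover counting error only. Leaving out scaling moved the median of all genes by 0.20 (log2) in regressing against water and against progressing tumours, by 0.11 with both ATO groups, by 0.02 in progressing against water and by 0.19 in grafts.

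The number of members called was 2 in regressing against water, and 1 with limma-voom, 4 with no filter on low counts and 0 to 2 with 1 library left out. It was 3 in progressing against water, 1 with only the compared groups and 1 to 4 with 1 library left out, and 4 between the ATO groups, with 1 to 5. With both ATO groups against water it was 3, and 6 with DESeq2, 1 with limma-voom, 5 with no filter, 0 with only the compared groups, 1 without water replicate 2 and progressing replicate 2 together, and 0 to 2 with 1 library left out. In grafts it was 1, and 0 with no scaling and 0 to 2 with 1 library left out. In U937 it was 4 past 2-fold and 7 past 1.5-fold. The count of all genes called, 1396, 2157, 2289, 1968 and 2157 in this order of comparisons, ranged over 60 to 3354, 882 to 3733, 177 to 4121, 366 to 3470 and 685 to 3298.

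Deviations of same-numbered thymus libraries from their group means correlated weakly, at r from -0.12 to 0.14. Differently numbered ones ran from -0.16 to 0.18, though 6 of 9 libraries were closest to their own number. These values do not settle whether the numbers mark pairs, and replicate numbers were not used for pairing. With the replicate number as a block, the members called were 1 in regressing against water, 3 in progressing against water, 5 between the ATO groups, 2 with both ATO groups and 0 in grafts. Under this block Bax did not pass in regressing against water (-1.93, adjusted p = 0.0542) or in grafts (-0.73, adjusted p = 0.0631, edgeR), nor Bcl2 with both ATO groups (-1.18, adjusted p = 0.0949). In grafts r was -0.13 for same-numbered and 0.13 for crossed pairs. With 2 libraries a group these values mirror each other, so they cannot decide on pairing. The crossed pairing called 1 member and no block 1.

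Changes that did not pass reversed under some alternatives, and the cause was not tested. With 1 library left out, the log2 change of regressing against water ranged from -0.29 to 0.74 for Bcl2 and from -0.074 to 0.68 for Bcl2l11, and that of progressing against water from -1.22 to 2.12 for Bbc3. Between the ATO groups it ranged from -0.10 to 0.063 for Bak1, -0.44 to 0.87 for Bid and -0.55 to 0.65 for Pmaip1. With both ATO groups it ranged from -0.47 to 0.19 for Mcl1, -1.25 to 0.12 for Bax and -1.56 to 0.95 for Bbc3, and in grafts from -0.32 to 0.64 for Bcl2, -0.37 to 0.50 for Pmaip1 and -0.38 to 0.34 for Bmf. Without water replicate 2 and progressing replicate 2 together, Bid was at 0.25 in progressing against water, Pmaip1 at 0.69 between the ATO groups, and Mcl1, Bax, Bid and Bbc3 at 0.24, 0.058, 0.049 and 0.10 with both ATO groups. Between the ATO groups Bak1 was at 0.13 with no scaling and 0.038 with no filter, Bid at 0.15 with limma-voom, 0.0013 with no scaling and 0.022 with the replicate block, and Pmaip1 at 0.35, 0.21 and 0.21 with these 3 and 0.028 with no filter. In grafts Pmaip1 was at -0.023 with no filter, and Bmf at -0.0085 with no filter and -0.0023 with limma-voom.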
